A study of Marmota monax with 7 samples.

Results

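The arrays described here are the 5 that received the smallest amounts of RNA, 0.1, 0.25, 0.5, 1 and 2 µg, out of 7 in the series. They were chosen by the amount in their titles, and the arrays of 5 and 10 µg serve only for comparison and for ranking probes by brightness. All arrays were membranes made for human genes and were hybridised with total RNA from the normal liver of adult woodchucks (Marmota monax), a species in which a relative of the human hepatitis B virus is studied. All carry the same lot label, each amount was measured on 1 array, and no label names an animal, so nothing shows whether the arrays share 1 RNA preparation. Scatter between arrays is therefore the only error available, and their number limits the precision.

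On a membrane array, cDNA made from the RNA sample is labelled and binds to DNA probes fixed on the surface. The signal of a probe is the sum of bound target and of a background from the membrane and from unspecific binding, so a rare transcript becomes visible only once its bound target exceeds that background. In hybridisation across species, mismatches between the woodchuck cDNA and the human probe can weaken binding, which makes the amount of RNA a practical limit. Liver is dominated by hepatocytes, which secrete plasma proteins and carry out detoxification, urea synthesis and lipid metabolism, with endothelial, stellate, bile duct and immune cells as minorities.

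Each array gave a linear spot intensity, in scanner units, for 5544 probes, with summed signals from 12951278 at 0.1 µg to 202468825 at 2 µg. The background of an array was taken as the 1st percentile of its signals, the net signal of a probe as its signal minus that background, and a probe was called detected where the net signal exceeded the background itself. The background was 1329 at 0.1 µg, 1377 at 0.25 µg, 1586 at 0.5 µg, 1902 at 1 µg and 2129 at 2 µg. The threshold for detection thus rose 1.60-fold over a 20-fold range of RNA.

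Gene names come from the annotation of the array, which gives 1 symbol for 3346 probes and 3011 genes, and they were not borne out by repeated probes. Of 113 pairs of probes that share a sequence accession, 14 had at least 1 probe detected at 0.1 µg and in 0 of the 14 were both detected. At 1 µg both probes were detected in 12 of the 65 pairs with at least 1, and at 2 µg in 29 of 82 (35.4%). At 5 and 10 µg it was 81 of 110 (73.6%) and 80 of 111 (72.1%). Taken singly, the probes of these pairs were detected at 49.1% at 2 µg and 84.5% at both 5 and 10 µg. All probes were detected at 47.6%, 77.1% and 78.8%. A share of pairs with at least 1 probe detected cannot be set against such a share of single probes. Both shares rose with RNA, so the rise in pairs with both detected does not by itself show better agreement. Whether these pairs agreed more than pairs of unrelated probes was not tested. Pairs with the same symbol but different accessions behaved alike, with both detected in 3 of 45 pairs at 0.1 µg and in 65 of 194 at 2 µg (33.5%). Glyceraldehyde-3-phosphate dehydrogenase, GAPDH, a glycolytic enzyme, is an example. One of its probes had net signals of 11113, 25820, 65299, 143528 and 344866 from 0.1 to 2 µg, and another of the same accession had 331, 381, 1512, 1567 and 2318. The first was far above its threshold on every array and the second passed it only at 2 µg. A gene named below therefore means its probe of highest signal on the arrays of 5 and 10 µg. Other probes of the same gene may differ, and no probe's level is set against another's as an amount of transcript.

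The number of detected probes rose with every increase in RNA. It was 479 at 0.1 µg (8.64% of all probes), 665 at 0.25 µg (12%), 1077 at 0.5 µg (19.4%), 1731 at 1 µg (31.2%) and 2638 at 2 µg (47.6%), which is 5.51 times as many at 2 µg as at 0.1 µg. On the log2 scale this was 0.59 ± 0.04 (SE, 5 arrays) per doubling of RNA, or 1.5 times as many probes (exact two-sided permutation p = 0.0167 over 120 pairings, of which the smallest possible is 0.00833). Leaving out 1 array at a time, the counts of the remaining 4 stayed in order of amount, with slopes from 0.56 to 0.66. The arrays of 5 and 10 µg had 4277 and 4371 detected probes. Among single-symbol genes, 283 of 3011 were detected at 0.1 µg (9.40%), 400 at 0.25 µg (13.3%), 654 at 0.5 µg (21.7%), 1060 at 1 µg (35.2%) and 1587 at 2 µg (52.7%). Probes with no symbol were detected at 8.56% at 0.1 µg and 43.7% at 2 µg.

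**Figure D1:**
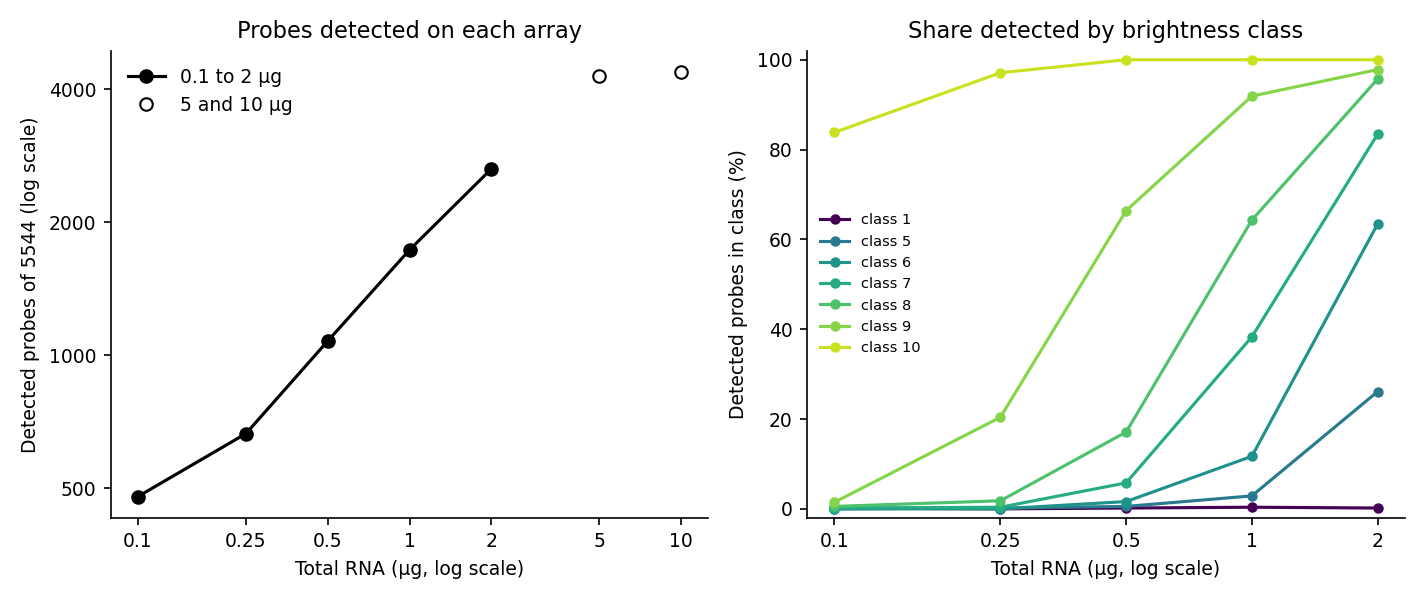
Left, number of probes with net signal above background (log scale) against total RNA in µg (log scale), 1 point per array. Right, percent of probes detected in brightness classes of about 555 probes, ranked on the arrays of 5 and 10 µg. The count rises from 479 to 2638 over the 5 low inputs, and the brightest class is 83.8% detected at 0.1 µg while class 5 reaches 26.1% at 2 µg.

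Detection entered in order of brightness. Probes were divided into 10 classes by their mean log2 signal on the arrays of 5 and 10 µg, which lie outside the titration. Of the 555 probes of the brightest class, 465 were detected at 0.1 µg (83.8%), 539 at 0.25 µg and all 555 from 0.5 µg on. Class 9 went from 8 of 554 probes at 0.1 µg to 113 at 0.25 µg, 368 at 0.5 µg, 509 at 1 µg and 542 at 2 µg. Class 7 had 2 at 0.25 µg and 462 at 2 µg, and class 5 had 1 and 145. In the dimmest class at most 2 of 554 probes passed on any of the 5 arrays. The main gain of probes thus lay at 0.1 µg in the brightest class, at 0.5 µg in class 9 and at 2 µg in class 7.

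The first amount of a probe is the smallest at which it was detected and from which it stayed detected up to 2 µg. It was 0.1 µg for 468 probes, 0.25 µg for 191, 0.5 µg for 384, 1 µg for 662 and 2 µg for 933, and 2906 probes (52.4%) had none. The median signal of these sets on the array of 10 µg was 1713257, 205358, 82520, 38664, 23458 and, for probes with no first amount, 8031. Of the 2906, 1653 were detected at 5 µg and 1742 at 10 µg. Detection was seldom lost again. Of the 479 probes detected at 0.1 µg, 468 were detected on all 5 arrays (97.7%). Of all 5544 probes, 77 (1.39%) were detected at some amount but not at a larger one. The 5544 include 2858 probes that were detected on none of the 5 arrays and had no detection to lose. Isolated detection occurred at 1 µg alone in 26 probes, at 0.5 µg alone in 18, at 0.1 µg alone in 3 and at 0.25 µg alone in 1.

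The order of the bright probes was kept better at small amounts than that of the dim probes. Of the 554 brightest probes at 2 µg, 505 were among the 554 brightest at 0.1 µg (91.2%), 514 at 0.25 µg, 531 at 0.5 µg and 529 at 1 µg. Across the 2772 brighter probes the Spearman correlation of signals with the array of 2 µg was 0.726 at 0.1 µg, 0.819 at 0.25 µg, 0.870 at 0.5 µg and 0.932 at 1 µg. Across the 2772 dimmer probes it was 0.0606, 0.141, 0.213 and 0.343. Between the arrays of 2 and 10 µg it was 0.652 for the dimmer and 0.921 for the brighter probes. The probes were split on brightness, so the range of signals differs between the sets and their correlations are not on an equal footing. These are descriptions across probes that share the noise of their array.

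The genes detected first had high signals on every array. Among the 276 genes first detected at 0.1 µg, the median net signal was 5999 at 0.1 µg, 12246 at 0.25 µg, 32820 at 0.5 µg, 85168 at 1 µg and 238005 at 2 µg, and 272 of them lay in the brightest class. The highest at 0.1 µg was the probe of HNRNPA1, which binds and helps to splice pre-mRNA, with net signals of 40125, 70501, 196837, 681737 and 2328626 in order of amount. The gene has 2 other probes, of which 1 stayed below the threshold on all 5 arrays and 1 was first detected at 1 µg. PRKAG2, a regulatory subunit of the AMP-activated kinase, followed with 38796, 78073, 207602, 566413 and 1936889. GSTO1, a glutathione transferase, had 29880, 85023, 201124, 756511 and 2159037, a gain of 72.3-fold and the steepest fitted slope of the brightest class. All these values lay far above the threshold on every array.

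The other genes among the 12 of highest net signal at 0.1 µg were RYBP, a component of Polycomb complexes, CNRIP1, which binds the cannabinoid receptor, and GRM5, a glutamate receptor of neurons. QSOX1, a secreted sulfhydryl oxidase, PSMA5, a subunit of the proteasome core, FBXO34, an F-box protein, MYLK, the myosin light chain kinase, KANK1 and KANSL1L completed them. Their net signals ran from 24191 to 35270 at 0.1 µg and from 886889 to 1942281 at 2 µg, with PSMA5 at 28064, 58653, 213667, 478974 and 1942281. Over the 20-fold range of RNA these 12 probes gained between 36.7-fold (KANSL1L) and 72.3-fold (GSTO1). With 1 array at each amount, single folds have no replicate check. RYBP and MYLK each have another probe, which was not detected on any of the 5 arrays. Of the 276 genes first detected at 0.1 µg, 42 have several probes, and in 1 of these 42 all probes were detected at 0.1 µg.

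**Figure D2:**
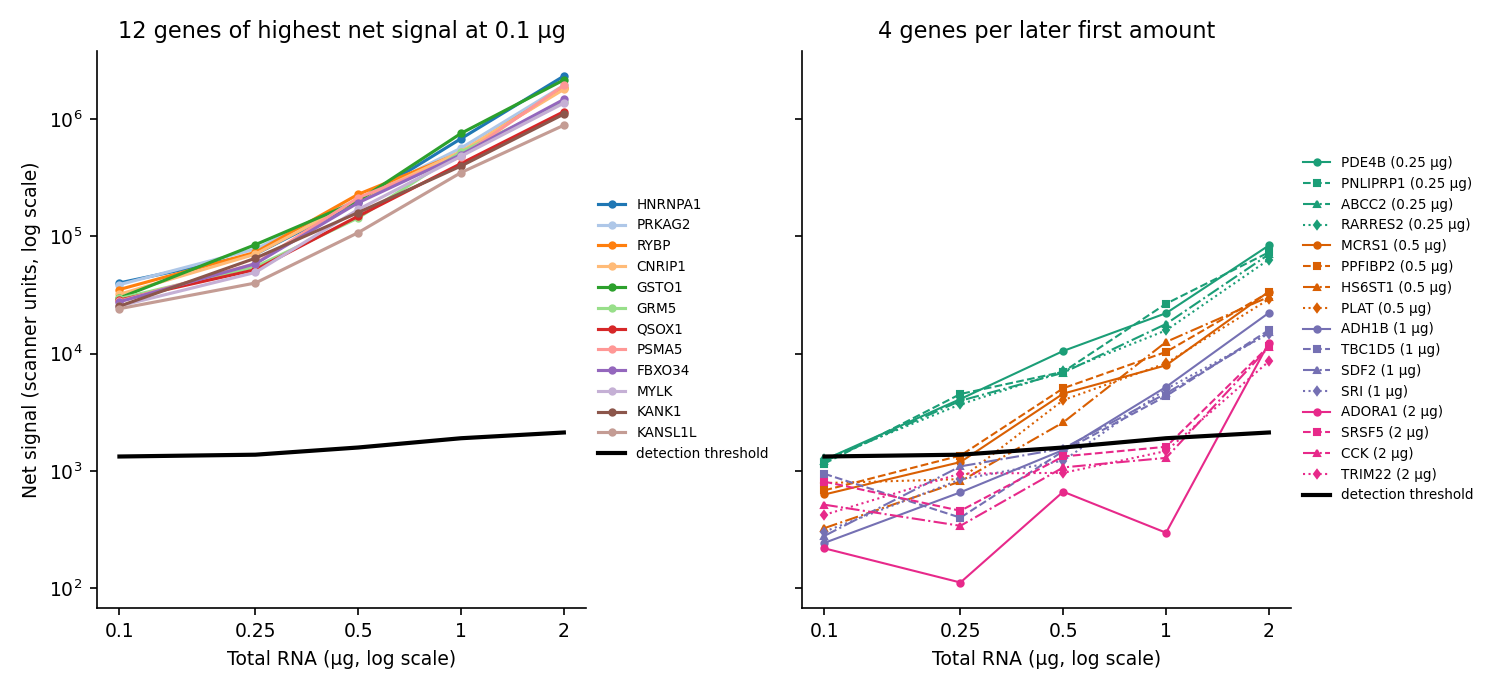
Net signal (scanner units, log scale) against total RNA in µg (log scale), 1 point per array, for the 12 genes of highest net signal at 0.1 µg (left) and the 4 brightest genes at each later first amount (right). The black line is the detection threshold, 1329 at 0.1 µg and 2129 at 2 µg. The left lines start between 24191 and 40125, while the right lines cross the threshold at the amount given in the legend.

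Some liver genes were detected at 0.1 µg, but most members of each list of liver genes were not. Hepatocyte secreted proteins had 3 of 19 (15.8%), xenobiotic and alcohol metabolism 5 of 17 (29.4%) and glucose metabolism 3 of 11 (27.3%). Lipid, cholesterol and bile acid metabolism had 1 of 13 (7.69%). Complement and coagulation had 0 of 13, and amino acid and urea metabolism 0 of 17. Of all genes, 9.40% were detected. APOB, the structural protein of very-low-density lipoprotein, had net signals of 20026, 45788, 121265, 342164 and 918473. CYP27A1, a mitochondrial sterol hydroxylase of bile acid synthesis, had 19697, 40928, 81959, 274754 and 985748. CYP2E1, an ethanol-oxidising cytochrome P450, came in at 1.57 times the threshold with 2089 and rose through 3800, 9269 and 20214 to 55645. In each of these 3 genes every array stood above the one before. A second probe of CYP27A1 with the same accession had 172 at 0.1 µg and 8751 at 2 µg.

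The brightest genes first detected at 0.25 µg stood just below the threshold at 0.1 µg. The 4 of highest net signal at 2 µg were PDE4B, a cyclic AMP phosphodiesterase, PNLIPRP1, a relative of pancreatic lipase, ABCC2, the canalicular exporter of conjugated bilirubin, and RARRES2, the adipokine chemerin, which liver secretes. Their net signals were between 1157 and 1254 at 0.1 µg and between 3699 and 4534 at 0.25 µg. At 0.5 times the background as threshold, all 4 were first detected at 0.1 µg, and of 108 named genes with a first amount 52 moved to another. ABCC2 read 1206, 3968, 6882, 17941 and 70317. Among those first detected at 0.5 µg the brightest were MCRS1, PPFIBP2, HS6ST1, which sulfates heparan sulfate, and PLAT, tissue plasminogen activator. HS6ST1 had net signals of 326, 815, 2599, 12602 and 30549, a gain of 93.7-fold, and PLAT had 789, 852, 4020, 8297 and 29141.

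At 1 µg the brightest newcomers were ADH1B, a class I alcohol dehydrogenase of liver, TBC1D5, SDF2 and SRI, the calcium-binding protein sorcin. ADH1B had net signals of 244, 658, 1511, 5210 and 22315, a gain of 91.5-fold. At 2 µg they were ADORA1, an adenosine receptor, SRSF5, a splicing factor, CCK, the peptide hormone cholecystokinin, and TRIM22, an interferon-induced protein. Their last step was large. ADORA1 had net signals of 219, 112, 666, 298 and 12375, so its rise within the titration lay on the array of 2 µg alone. It had 37600 at 5 µg and 371 at 10 µg, below the threshold again. CCK went from 1294 at 1 µg to 11397 at 2 µg. Genes first detected at 2 µg were picked for their net signal on that array, so this step is part of their choice.

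Genes at the threshold show how fine the division is. At 0.1 µg, UBE2V2, ETNK2 and RPA2 stood just above it, with net signals of 1333, 1338 and 1351, and CCND1, TBC1D8B and TMCO4 just below, with 1326, 1323 and 1311. RPA2 fell to 1225 at 0.25 µg, below the threshold of 1377, so its first amount was 0.5 µg. At 2 µg, POMZP3, GABPB1 and KDM5A stood just above with 2131, 2135 and 2135, and CBR4, DHRS1 and CNTN1 just below with 2123, 2122 and 2121.

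Only 2 genes were detected at 0.1 µg and not at 2 µg. ADH6, an alcohol dehydrogenase, had net signals of 4519, 288, 343, 621 and 58, and TRIP10, an adaptor of actin remodelling, had 3522, 353, 1064, 920 and 1973. They were chosen for this loss, so a falling slope restates the choice, and the slopes are given as descriptions. The net slope of ADH6 over all 5 arrays was -0.96 ± 0.28 log2 units per doubling, and without the array of 0.1 µg it was -0.37. That of TRIP10 was -0.07 ± 0.29 and 0.72 without that array.

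With the 1st percentile as background, the slope of the class median rose with brightness. A slope of 1 in log2 net signal per doubling stands for signal in proportion to RNA. The median net signal of the brightest class was 4597 at 0.1 µg, 9142 at 0.25 µg, 24651 at 0.5 µg, 61663 at 1 µg and 165908 at 2 µg, a gain of 36.1-fold and a slope of 1.22 ± 0.08 (SE, 5 arrays). Class 9 had 551, 936, 1950, 4445 and 11791 (21.4-fold, 1.03 ± 0.10) and class 5 had 247, 340, 571, 892 and 1681 (6.80-fold, 0.64 ± 0.06). The dimmest class had 203, 272, 422, 470 and 507 (2.50-fold, 0.33 ± 0.05). The classes in between followed in order, from 0.37 in class 2 to 0.92 in class 8. Per µg of RNA, the net signal of the brightest class was 45970 at 0.1 µg, 36568 at 0.25 µg, 49302 at 0.5 µg, 61663 at 1 µg and 82954 at 2 µg.

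**Figure D3:**
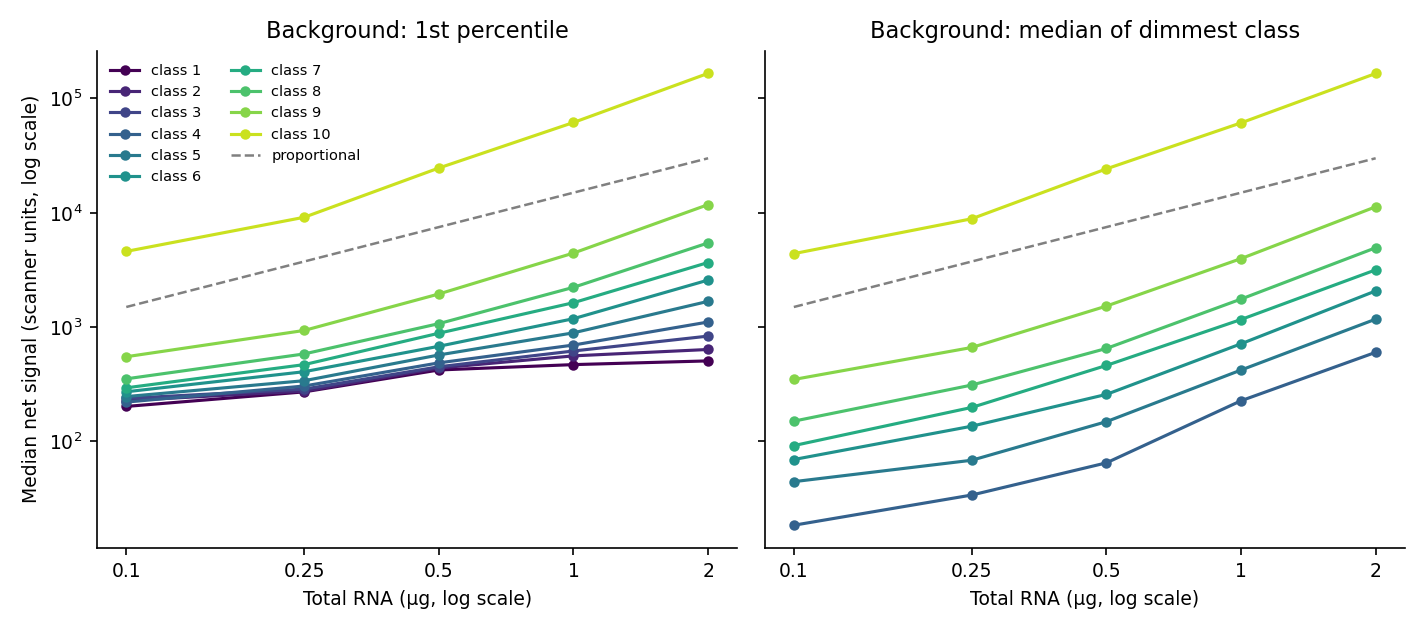
Median net signal per brightness class (scanner units, log scale) against total RNA in µg (log scale), 1 point per array, with the dashed line in proportion to RNA. Left, background at the 1st percentile, where slopes run from 0.33 in class 1 to 1.22 in class 10. Right, background at the median of the dimmest class, shown for classes 4 to 10, where slopes lie between 1.12 and 1.24.

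The order of the slopes of class medians by brightness depended on the background taken. The 1st percentile lies below nearly all probes by definition, so almost every probe had some net signal, and 58 of 5544 were at or below 0 at 0.1 µg. Another background, added once these values were known, was the median of the dimmest class, 1532 at 0.1 µg and 2636 at 2 µg. The slopes of the class medians were then 1.19 ± 0.14 in class 4, 1.12 ± 0.14 in class 5, 1.14 ± 0.11 in class 6, 1.19 ± 0.07 in class 7, 1.17 ± 0.09 in class 8, 1.18 ± 0.10 in class 9 and 1.24 ± 0.08 in class 10. From class 4 to 10 these slopes of class medians thus lay between 1.12 and 1.24. They no longer rose steadily with brightness, although class 10 still had the highest. Classes 2 and 3 had 0.82 ± 0.50 and 0.87 ± 0.37, and class 1 has no value because it set the background. Class 5 then had median net signals of 44.5, 68.5, 149, 422 and 1174, and gained 26.4-fold. Class 4 had 18.5, 34, 65, 227 and 602. At 0.1 µg both medians were small beside the background of 1532, so their slopes hang on its exact value. Only the brightest class had nearly the same slope under both backgrounds.

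The slope was not even over the titration. In the brightest class the step from 0.1 to 0.25 µg raised the median net signal 1.99-fold for 2.5 times the RNA, a slope of 0.75 per doubling. The steps from 0.25 to 0.5, 0.5 to 1 and 1 to 2 µg gave 2.70-fold, 2.50-fold and 2.69-fold, slopes of 1.43, 1.32 and 1.43. Class 9 had 0.58, 1.06, 1.19 and 1.41 over the 4 steps and class 5 had 0.35, 0.75, 0.64 and 0.91. The first step was below 1 in every class. In classes 5 to 9 the last step was the steepest, and in the other classes the step from 0.25 to 0.5 µg was. Without the array of 0.1 µg the slope of the brightest class median was 1.39, and without that of 2 µg it was 1.14. With 1 array at each amount, an uneven step and a deviating array cannot be told apart.

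**Figure D4:**
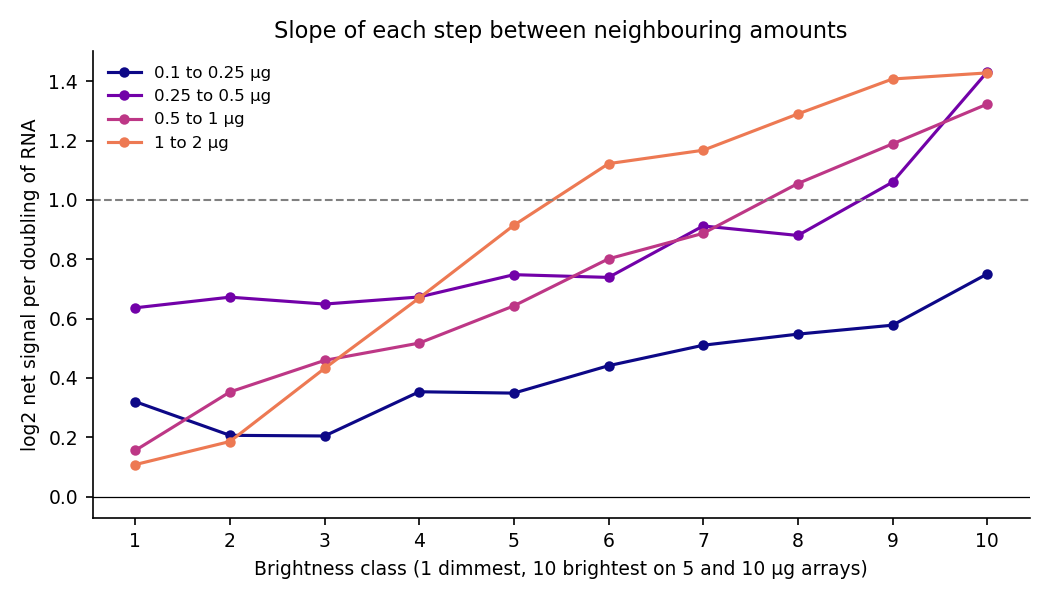
Slope of the class median between neighbouring amounts (log2 net signal per doubling of RNA) against brightness class, 1 line per step, with the dashed line at proportion. The step from 0.1 to 0.25 µg lies below 1 in every class (0.75 in class 10), and the other 3 steps of class 10 lie between 1.32 and 1.43.

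Per probe, limma fitted a line of log2 net signal on the log2 of the amount through the 5 arrays, after net signals under 100 had been set to 100. Of 5544 probes, 3822 rose (68.9%) and 5 fell (0.0902%) at a Benjamini-Hochberg adjusted p of 0.05. Without the array of 2 µg 2408 rose, and with the background at the dimmest class 2264. All 555 probes of the brightest class rose, with fitted slopes from 0.89 to 1.45 and a median of 1.23, as did 407 of 555 in class 5 and 122 of 554 in the dimmest class, which also held the 5 falls. Net signals under 100 made up 12.1% of the values of the dimmest class, 4.83% of class 5 and 0% of the brightest. The median residual SD around the line fell from 0.89 log2 units in the dimmest class to 0.35 in the brightest.

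Tested against proportion, 877 probes had a slope below 1 (15.8%) and 5 had one above 1 (0.0902%), of which 1 carried a gene name. The calls below 1 lay mainly among dim probes, with 259 of 554 in the dimmest class, 68 of 555 in class 5 and 0 of 555 in the brightest. With the brighter probes only, 11 were below 1. Without the array of 0.1 µg, or without that of 2 µg, 0 probes passed in either direction, so every one of these calls ended. The gene was HS6ST1 (1.59 ± 0.17, limma adjusted p against 1 of 0.0463), and the other named genes did not pass above 1, including GSTO1 (1.45 ± 0.16, limma adjusted p against 1 of 0.0831) and ADH1B (1.49 ± 0.17, limma adjusted p against 1 of 0.0758). In the brightest class 546 of 555 fitted slopes exceeded 1 and 0 passed, while 46 of all probes were above 1 at an unadjusted p under 0.05. When the variance prior of limma was fitted as a trend on brightness, with robust estimation, 157 probes passed above 1, 135 of them in the brightest class, and 1177 below 1. These calls thus rest on how the scatter of 5 arrays is shared.

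The arrays of 5 and 10 µg lay above the line of the low inputs, with a difference that did not pass. Whether they were scanned at the same exposure as the low inputs is not known here, and exposure and amount cannot be told apart. Their median offset from the common slope was 0.95 log2 units (1.93-fold) in the brightest class and 1.75 (3.37-fold) in class 5, and 5073 of 5544 probes had an offset above 0. With limma, 0 probes passed at an adjusted p of 0.05 (0%) in either direction, while 1245 were above 0 and 27 below 0 at an unadjusted p under 0.05. Without the array of 10 µg 438 probes passed above 0 and 14 below 0, and without the array of 5 µg the median offset of the brightest class was 0.22 and 0 probes passed in either direction. The next steps of the brightest class were 7.12-fold from 2 to 5 µg (slope 2.14) and 1.11-fold from 5 to 10 µg (slope 0.16), both outside the range of the 4 low-input steps.

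Among lists of liver genes, detection was spread over the whole titration. Of 19 hepatocyte secreted proteins, 3 were detected at 0.1 µg (15.8%, against 9.40% of all genes), 6 at 1 µg (31.6% against 35.2%) and 10 at 2 µg (52.6% against 52.7%). The 3 were APOB, APOE, the ligand of lipoprotein receptors, and ITIH3, a heavy chain that binds hyaluronan. The fibrinogen chains FGB and FGG came at 2 µg, while transferrin, TF, and fetuin, AHSG, were below the threshold at 2 µg. The lowest net signal at 2 µg was that of SERPINA3, an acute phase protease inhibitor, at 414. Of 7 measured genes among 16 fixed hepatocyte markers, 3 were detected at 0.1 µg and 6 at 2 µg, with summed net signals of 34549 and 1284145. Albumin was not among the measured genes.

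Of 17 genes of xenobiotic and alcohol metabolism, 5 were detected at 0.1 µg (29.4% against 9.40% of all genes) and 12 at 2 µg (70.6% against 52.7%). GSTO1, CYP3A7, a fetal form of the main drug-oxidising P450, ADH5, which clears formaldehyde, and CYP2E1 were detected on all 5 arrays, and the fifth was ADH6. CYP3A7 had net signals of 15647, 22820, 84254, 171493 and 602533. Of 13 complement and coagulation genes, 0 were detected at 0.1 and 0.25 µg, against 9.40% and 13.3% of all genes. At 0.5 µg 3 were detected (23.1% against 21.7%), at 1 µg 5 (38.5% against 35.2%) and at 2 µg 9 (69.2% against 52.7%). C5, the complement component that starts the membrane attack pathway, and PLG, plasminogen, came at 0.5 µg, and coagulation factor F10 at 1 µg. C6, which follows C5 in that pathway, had 1590 at 0.5 µg, just above the threshold of 1586, and 730 at 2 µg.

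At 2 µg, 13 of the 19 lists lay above the share of all genes of 52.7%. Among them were the lists of xenobiotic, amino acid, lipid and glucose metabolism, but also red cell markers (77.8%), lymphocyte markers (75%) and retina genes (75%). Amino acid and urea metabolism had 0 of 17 at 0.1 µg and 13 at 2 µg (76.5%), beginning at 0.25 µg with FAH of tyrosine breakdown and GLDC of glycine cleavage. CPS1, the entry enzyme of the urea cycle, came at 2 µg. Lipid, cholesterol and bile acid metabolism had 1 of 13 at 0.1 µg, CYP27A1, and 10 at 2 µg (76.9%). FDPS and LSS of cholesterol synthesis came at 0.5 µg. Glucose metabolism had 3 of 11 at 0.1 µg (27.3% against 9.40%), GAPDH, LDHA and TKT, the same 3 genes at 0.25 and 0.5 µg, and 8 at 2 µg (72.7%). PCK1, the cytosolic enzyme of gluconeogenesis, was below the threshold on all 5 arrays, with 1411 at 2 µg. Lists are small, and no list was tested against the other genes.

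Of the lists of common cell machinery, reference genes came earliest, while all genes were detected at 9.40% at 0.1 µg and 52.7% at 2 µg. Of 9 reference and cytoskeletal genes, 5 were detected at 0.1 µg (55.6%) and all 9 at 2 µg (100%), with ACTB, beta-actin, at net signals of 1966, 3252, 11438, 18327 and 75888. A second probe of ACTB had 221 at 0.1 µg and was first detected at 1 µg. The other probes of GAPDH, LDHA and HNRNPA1, also among the 5, were not detected at 0.1 µg either. The early detection of this list thus rests on the brightest probe of each of these genes. Of all 3011 genes only 283 have several probes to choose from, so the list and all genes are unlike in this. Proteasome genes had 4 of 15 at 0.1 µg (26.7%), 7 at 0.25 µg, 9 at 0.5 µg and 10 at 2 µg (66.7%), with PSMA1, PSMB7 and PSME3 beside PSMA5. Ribosomal proteins had 2 of 9 at 0.1 µg, RPL10A and RPL28, and 5 at 2 µg (55.6%). The respiratory chain and ATP synthase list had 1 of 13 at 0.1 µg, ATP5MC3, 6 at 1 µg and 8 at 2 µg (61.5%).

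**Figure D5:**
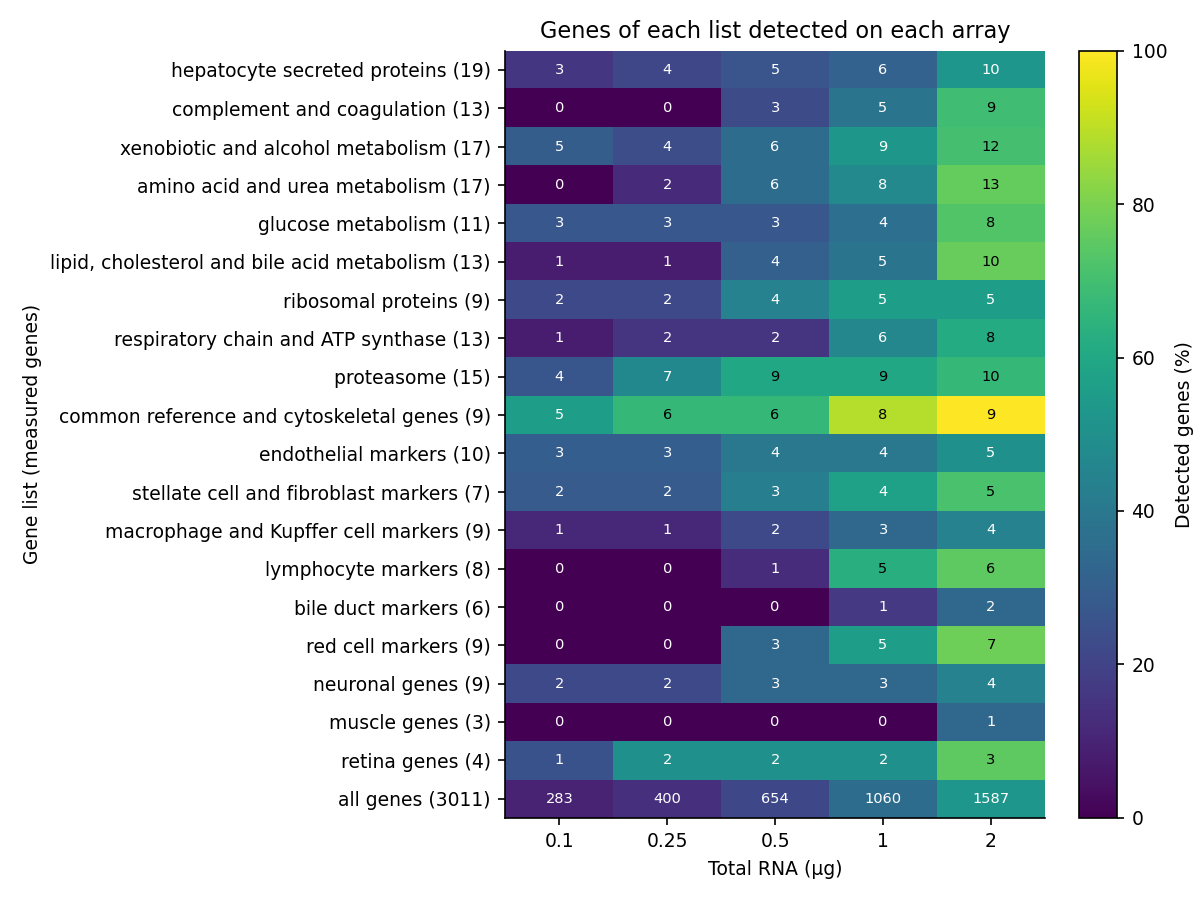
Number (digits) and percent (colour) of the measured genes of each list detected at each amount of RNA in µg, with the number measured in brackets. All genes run from 283 of 3011 at 0.1 µg to 1587 at 2 µg, and the reference genes go from 5 to 9 of 9.

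Genes of other liver cells and of other tissues were detected at small amounts too. Endothelial markers had 3 of 10 at 0.1 µg (30.0%), namely EDNRB, an endothelin receptor, VWF, von Willebrand factor, and ENG, endoglin, and 5 at 2 µg, while PECAM1 and KDR were below the threshold at 2 µg. Stellate cell and fibroblast markers had 2 of 7 at 0.1 µg, the collagen chain COL1A2 and FBN1, and 5 at 2 µg. Macrophage markers had 1 of 9 (11.1%) and 4 (44.4%), near the 9.40% and 52.7% of all genes. Lymphocyte markers had 0 of 8 and 6, red cell markers 0 of 9 and 7, and bile duct markers 0 of 6 and 2 (33.3%). Neuronal genes had 2 of 9 at 0.1 µg (22.2%), GRM5 and ENO2, and 4 at 2 µg (44.4%). Retina genes had 1 of 4, PDE6G of the photoreceptor phosphodiesterase with a net signal of 14505, and 3, and muscle genes 0 of 3 and 1. These are statements about probes, in view of the disagreement between probes of 1 accession, and in whole tissue fewer cells of a type and less RNA per cell cannot be told apart.

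Detection also differed between 2 parts of the array. Of the 2772 probes with numbers up to 2772, 330 were detected at 0.1 µg (11.9%) and 1755 at 2 µg (63.3%), and of the 2772 with higher numbers 149 (5.38%) and 883 (31.9%). With a background taken within each part the counts were 327 and 1622 against 149 and 923. The split was chosen from the data, what divides the membrane is not given in the sources used, and its part in which genes came first was not tested.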

How the data were processed

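Each deposited value is a linear probe intensity above 0 from a human membrane array hybridised with woodchuck liver RNA, per the labels. Scanning, background correction and scaling by the authors are not given in the sources used here. The arrays were not scaled to each other. Probe names come from GEO's annotation of the platform, which can be old, and each gene was represented by its single-symbol probe of highest mean log2 signal at 5 and 10 µg. Fits used R 4.3.3 with limma 3.58.1 on log2 net signals with a floor of 100, over all 5544 probes. Other steps used Python 3.11.15 with numpy 2.4.6, pandas 2.3.3, scipy 1.17.1 and matplotlib 3.10.9. In a test on simulated data with noise independent between 5544 probes, limma recovered 10% of probes given a slope of 0.5, 90% of those given 1 and 100% of those given 1.5, and 2.63% of its calls were false. For the offset of the larger inputs it recovered 2% of probes given 2 and 10% of those given 3. Every simulated probe had the same spread, and in the test of the slope nearly all were flat. In the data the median residual SD fell from 0.89 in the dimmest class to 0.35 in the brightest, and 68.9% of probes rose. The recovered shares and the share of false calls therefore do not carry over to these data.

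The arrays, lists and rules were chosen with earlier results of these data known. The set of named genes held the 12 of highest net signal at 0.1 µg, 4 per later first amount and 3 on each side of the threshold at 0.1 and 2 µg. It also held those lost by 2 µg and the 5 steepest and 5 shallowest of the brightest class. From each list it took up to 4 of highest net signal, and from liver lists the lowest member. Not all of the set is printed above, and none of the 5 shallowest is. First amounts of other list members were named after their values were seen. Alternatives were other backgrounds, thresholds, floors, rankings and variance priors, any probe per gene, and leaving out each array. The background at the dimmest class was added after seeing the data.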

Additional observations from a re-analysis of the deposited data

How the results depend on the processing

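Calling a probe detected at 0.5 times the background gave 861, 1471, 2425 and 3076 probes from 0.1 to 1 µg, 468, 309 and 438 genes first detected at 0.1, 0.25 and 0.5 µg, and 62 same-accession pairs with both probes detected at 2 µg. At 2 times the background, 637, 1002 and 1724 probes were detected at 0.5, 1 and 2 µg, 62, 116 and 239 genes were first detected at 0.25, 0.5 and 1 µg, and 12 pairs were. With the background at the 5th percentile 17 pairs were detected, at the lowest signal 49 pairs and 403 genes first at 0.5 µg, and at the median of the dimmest class, chosen after seeing the data, 15 pairs and 70 and 131 genes first at 0.25 and 0.5 µg. The first amounts of named genes moved for 52 of 108 at 0.5 times the background, and for 43 at 2 times, 27 with the lowest signal, 21 with the dimmest class, 9 with the 5th percentile and 5 with a background by part.

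Counts of slopes and offsets moved too. Below 0 there were 8 probes with the 5th percentile, 1 with the lowest signal, with a floor of 300, with the dimmest class or with the trended robust prior, and 0 without subtraction or with the brighter probes only. Above 1 there were 3 with the 5th percentile, 13 with the lowest signal, 199 without subtraction, 1 with a floor of 50, 36 with a floor of 300, 51 with the dimmest class, 157 with the trended robust prior and 1 with the brighter probes only. Below 1 there were 1802 with the lowest signal, 4912 without subtraction, 390 with a floor of 50, 2912 with a floor of 300 and 11 with the brighter probes only. Above 0 there were 2264 with the dimmest class. Without subtraction the median slope was 1.14 in the brightest class and 0.30 in class 5. Offsets above 0 numbered 6 with the 5th percentile, 3378 without subtraction, 891 with a floor of 300 (and 1 below 0) and 263 with the dimmest class. The cause was not tested.

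Leaving out 1 array at a time, the trend in detected probes was 0.56 to 0.66, with an exact p of 0.0833 without the array of 0.1, 0.5 or 2 µg, where the smallest possible is 0.0833 without that of 0.1 µg and 0.0417 without the others. Slopes above 0 numbered 2408 to 3907, below 0 3 to 7, above 1 0 to 6 and below 1 0 to 1196, the zeros without the array of 0.1 or 2 µg. The median probe slope was 1.14 to 1.41 in the brightest class. Offsets above 0 numbered 0 to 438 and below 0 0 to 14, and the brightest class had a median offset of 0.22 to 1.54. No paired analysis was possible because each amount has 1 array. Depth is unknown for these arrays, and a net signal under 100 was set to that floor.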
